A study of Arabidopsis thaliana with 11 samples.

Results

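The NGATHA genes of Arabidopsis thaliana, NGA1 to NGA4, encode closely related transcription factors with a B3 DNA-binding domain. They act redundantly late in the development of the carpel, where their joint loss leaves the pistil without a normal style and stigma. Their function was removed here by different means. The nga quadruple mutant carries the alleles nga1-1, nga2-1, nga3-1 and nga4-1, while amiR-NGA plants keep the genes and express an artificial microRNA against them (35S:miR-NGA) from the viral 35S promoter, which is active in most tissues. An artificial microRNA guides cleavage of matching transcripts and lowers them, whereas a mutant allele changes the locus itself.

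The comparison set the 2 arrays of the quadruple mutant against the 2 arrays of amiR-NGA, 4 of the 11 arrays of the series, chosen by their sample titles. The study's design text names the transgene 35S:amiR-NGA164a and pools both genotypes into a single mutant group, on the basis of array correlations and phenotype, and the comparison asks at which genes they differed. The other 7 arrays, labelled wild type, gave the reference level and most of the information on spread. All plants were of the Ler ecotype, and RNA came from inflorescences 30 days after sowing with flowers of stage 12 and younger. The labels note long days for wild-type replicates 2, 3 and 4 and give no day length for the others. The labels do not give the number of plants or transgenic lines behind an array. They also do not say whether replicates were grown separately, so the p-values cover only the variation among these arrays, which may be technical.

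Values are log2 expression values made by the authors with GC-RMA, so a difference of 1 is 2-fold. They ran from 2.61 to 14.37, and values below about 4 lie near the floor, where folds are compressed and not exact. Of 22746 probe sets, 17910 reached 4 on at least 4 arrays and were tested. The actin control probes for the 3-prime end exceeded those for the 5-prime end by 2.11 on quadruple mutant replicate 1, against 1.19 on replicate 2 and 1.25 and 1.09 on amiR-NGA replicates 1 and 2. Wild-type replicates 1 and 2 were also high in this measure, at 2.05 and 2.103. NGA1 was at odds with the shared wild-type label, as its values below show.

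The targeted genes were compared first. NGA3 measured 4.06 and 4.1 on quadruple mutant replicates 1 and 2 and 4.66 and 4.297 on amiR-NGA replicates 1 and 2, against a lowest, median and highest wild-type value of 5.21, 5.68 and 5.84. NGA4 measured 4.51 and 4.45 in the quadruple mutant and 4.73 and 4.84 in amiR-NGA, with wild-type values of 5.89, 6.07 and 6.54. For both genes all 4 nga arrays lay below every array labelled wild type, and the quadruple mutant lay below amiR-NGA by less than the test could separate. The quadruple mutant minus amiR-NGA difference was -0.40 for NGA3 (95% interval -0.86 to 0.07, limma adjusted p = 0.739) and -0.31 for NGA4 (-0.75 to 0.13, adjusted p = 0.788). A measured difference as large as 2-fold thus lay outside both intervals. The nga values of both genes lay not far above the floor, where folds are compressed. The intervals therefore bound the measured difference and not that of the transcripts.

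NGA2 separated the genotypes in level but not in the test. It measured 4.68 and 4.77 in the quadruple mutant and 5.34 and 5.47 in amiR-NGA, the latter inside the wild-type range of 5.19 to 5.52. The difference was -0.68 (95% interval -1.01 to -0.35, limma adjusted p = 0.245).

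NGA1 had the opposite order. It measured 6.95 and 6.50 in the quadruple mutant and 5.02 and 4.88 in amiR-NGA, a difference of 1.77 that did not pass the threshold (limma adjusted p = 0.870). The wild-type arrays ran from 5.60 to 5.99 on replicates 1 to 4 and from 10.50 upward on replicates 5 to 7, so the spread used by the test was wide and the interval of the difference ran from -2.32 to 5.86. With wild-type replicates 1 to 4 as the wild-type arrays the same difference had an SE of 0.21 and an adjusted p of 0.0235. It was 0.0600 with replicates 5 to 7, and 0.291 with the 4 nga arrays alone. The close relative AT3G11580 measured 4.77 and 4.91 in the quadruple mutant and 5.20 and 5.36 in amiR-NGA (difference -0.43, 95% interval -1.04 to 0.18, adjusted p = 0.786).

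Across all probe sets the genotypes differed at few. The limma test with Benjamini-Hochberg adjustment over all 17910 probe sets called 24, which is 0.134% of those tested. Of these, 18 (0.101%) were higher and 6 (0.0335%) lower in the quadruple mutant than in amiR-NGA, and all 24 differed at least 2-fold. A gene could be named for 17 of them, 13 higher and 4 lower. The annotation does not list 4 of the others and gives several genes for 3, so these 7 stay unnamed. The count was 14 without quadruple mutant replicate 1, 179 without quadruple mutant replicate 2, 17 without amiR-NGA replicate 1, 13 without amiR-NGA replicate 2, and 2 with the 4 nga arrays alone.

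The quadruple mutant departed from wild type at all 24. Both quadruple mutant arrays lay above every wild-type array at the 18 higher probe sets and below every one at the 6 lower ones. Both amiR-NGA arrays lay inside the wild-type range at 11 of the 24, they lay partly outside at 8, and both lay beyond it at 5. Over all tested probe sets, the quadruple mutant lay above every array of both other groups at 4.53% and below at 6.10%, and amiR-NGA lay above at 5.22% and below at 3.38%. The amiR-NGA minus wild type difference ran from -0.56 to 0.79 over the 24, and 0 of them passed the limma threshold in that comparison (lowest adjusted p = 0.0992), against 0.932% of all probe sets. The quadruple mutant minus wild type difference passed at all 24, against 4.17% of all probe sets. Both comparisons use the same 7 wild-type arrays and are given as levels only. They also use the quadruple mutant and amiR-NGA values by which the 24 were picked, so these shares follow in part from that choice.

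**Figure D1:**
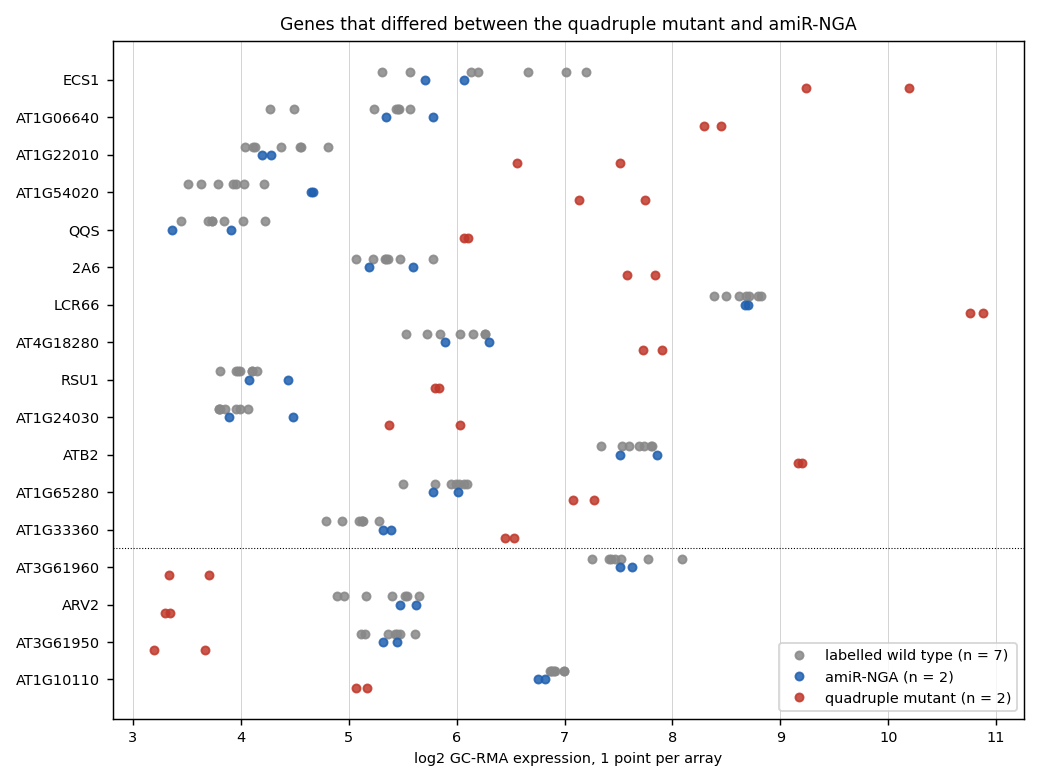
Log2 GC-RMA expression (x axis) of the 17 named genes past the threshold (y axis), with 1 point per array for the 7 arrays labelled wild type, the 2 quadruple mutant arrays and the 2 amiR-NGA arrays. The quadruple mutant points stand apart from all others for each gene, to the right for the 13 genes above the dotted line and to the left for the 4 below it.

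Among the higher genes, ECS1 (AT1G31580), which encodes a cell-wall protein, had the largest difference. It measured 9.23 and 10.19 in the quadruple mutant, 5.70 and 6.07 in amiR-NGA and between 5.31 and 7.20 on the wild-type arrays, a 14.2-fold difference (log2 3.83, SE 0.56, limma adjusted p = 0.0167). ECS1 was also the most variable of the named genes within wild type, and its call ended without quadruple mutant replicate 1 or either amiR-NGA replicate (adjusted p up to 0.169) and also when the 3 arrays with a high actin value were left out.

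LCR66 (AT1G61070), a small cysteine-rich protein that the RefSeq table also lists as plant defensin 2.4, was measured far from the floor in every group. It stood at 10.76 and 10.88 in the quadruple mutant and at 8.70 and 8.68 in amiR-NGA, with a lowest, median and highest wild-type value of 8.38, 8.68 and 8.82. Neither genotype overlapped the other, and the 4.37-fold difference (log2 2.13, SE 0.17, adjusted p = 0.000137) kept its call without any 1 array.

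QQS (AT3G30720) is an orphan gene, without relatives in other species, whose loss alters leaf starch. It measured 6.07 and 6.11 in the quadruple mutant and 3.91 and 3.36 in amiR-NGA. Wild-type values of QQS ran from 3.45 to 4.23, so the gene lay near the floor everywhere but in the quadruple mutant. The log2 difference was 2.45 (SE 0.24, adjusted p = 0.000842), and its 5.47-fold size is not exact. Besides both quadruple mutant arrays, QQS reached 4 on wild-type replicates 1 and 2 alone. It thus met the filter only with the group in which it is high, and its p carries that limit.

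RSU1 (AT3G48130) showed the same arrangement, at 5.80 and 5.84 in the quadruple mutant, 4.44 and 4.08 in amiR-NGA and 3.80 to 4.15 on the wild-type arrays (log2 difference 1.56, SE 0.17, adjusted p = 0.00148). ATB2 (AT1G60710), an aldo-keto reductase family gene, was bright in all groups. It measured 9.20 and 9.16 in the quadruple mutant and 7.86 and 7.51 in amiR-NGA, with 7.34 to 7.81 in wild type, a 2.82-fold difference (adjusted p = 0.00445) whose call ended when amiR-NGA replicate 2 or quadruple mutant replicate 1 was left out (adjusted p up to 0.104).

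2A6 (AT1G03410), of the 2-oxoglutarate-dependent dioxygenase family, was represented by 2 probe sets. On the brighter it measured 7.58 and 7.84 in the quadruple mutant, 5.19 and 5.59 in amiR-NGA and 5.07 to 5.78 in wild type (log2 difference 2.32, SE 0.22, adjusted p = 0.000689). The other probe set, near the floor, read 4.21 and 4.29, 3.55 and 3.62, and 3.53 to 4.13 in the same order (log2 difference 0.67, adjusted p = 0.627). The direction was shared by both probe sets and the size was not.

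The remaining 7 of the 13 higher genes are known here by locus alone. AT1G54020 measured 7.74 and 7.13 in the quadruple mutant, 4.67 and 4.65 in amiR-NGA and 3.51 to 4.22 in wild type, so that amiR-NGA lay between the other groups (quadruple mutant minus amiR-NGA 2.78, SE 0.25, adjusted p = 0.000372). AT1G22010 stood at 6.56 and 7.51 against 4.19 and 4.28, inside a wild-type range of 4.04 to 4.81 (log2 difference 2.80, SE 0.31, adjusted p = 0.00184). AT1G06640 stood at 8.45 and 8.29 against 5.34 and 5.78, with 4.27 to 5.57 in wild type (log2 difference 2.81, SE 0.40, adjusted p = 0.0166). These 3 had the largest differences among the loci without a symbol.

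Differences were smaller at the other 4 loci. AT4G18280 measured 7.72 and 7.91 in the quadruple mutant and 6.30 and 5.89 in amiR-NGA (log2 difference 1.72, adjusted p = 0.0167), and AT1G24030 6.03 and 5.37 against 4.49 and 3.89 (1.51, adjusted p = 0.0244). AT1G65280 measured 7.08 and 7.27 against 6.01 and 5.78 (1.28, adjusted p = 0.0293), and AT1G33360 6.53 and 6.45 against 5.39 and 5.32 (1.14, adjusted p = 0.0167). Each lay above its highest wild-type value, of 6.26, 4.07, 6.10 and 5.28 in that order, on both quadruple mutant arrays. AT1G24030 met the filter only with the quadruple mutant arrays, in which it is high, so its p carries that limit. Calls of AT1G06640, AT4G18280 and AT1G33360 ended without quadruple mutant replicate 1 or either amiR-NGA replicate (adjusted p up to 0.367). Those of AT1G24030 and AT1G65280 ended without any of several arrays, wild-type replicates 3 and 5 included (up to 0.595).

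Of the 4 lower genes, AT3G61960 differed most. It measured 3.70 and 3.34 in the quadruple mutant, at the floor, and 7.62 and 7.52 in amiR-NGA, inside a wild-type range of 7.25 to 8.09 (log2 difference -4.05, SE 0.25, limma adjusted p = 1.48e-05). It kept its call under every alternative run, with an adjusted p of at most 0.0363. AT3G61950 was at 3.67 and 3.196 against 5.45 and 5.32, with 5.11 to 5.62 in wild type (log2 difference -1.95, SE 0.20, adjusted p = 0.00130).

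ARV2 (AT4G01510), a relative of the yeast lipid-homeostasis gene ARV1, was likewise at the floor in the quadruple mutant. Its values were 3.34 and 3.3 there, 5.62 and 5.48 in amiR-NGA and 4.89 to 5.65 in wild type (log2 difference -2.23, SE 0.25, adjusted p = 0.00191). AT1G10110 fell less far but with little spread, to 5.07 and 5.17 against 6.82 and 6.75, and 6.87 to 6.999 in wild type (log2 difference -1.66, SE 0.13, adjusted p = 0.000137).

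**Figure D2:**
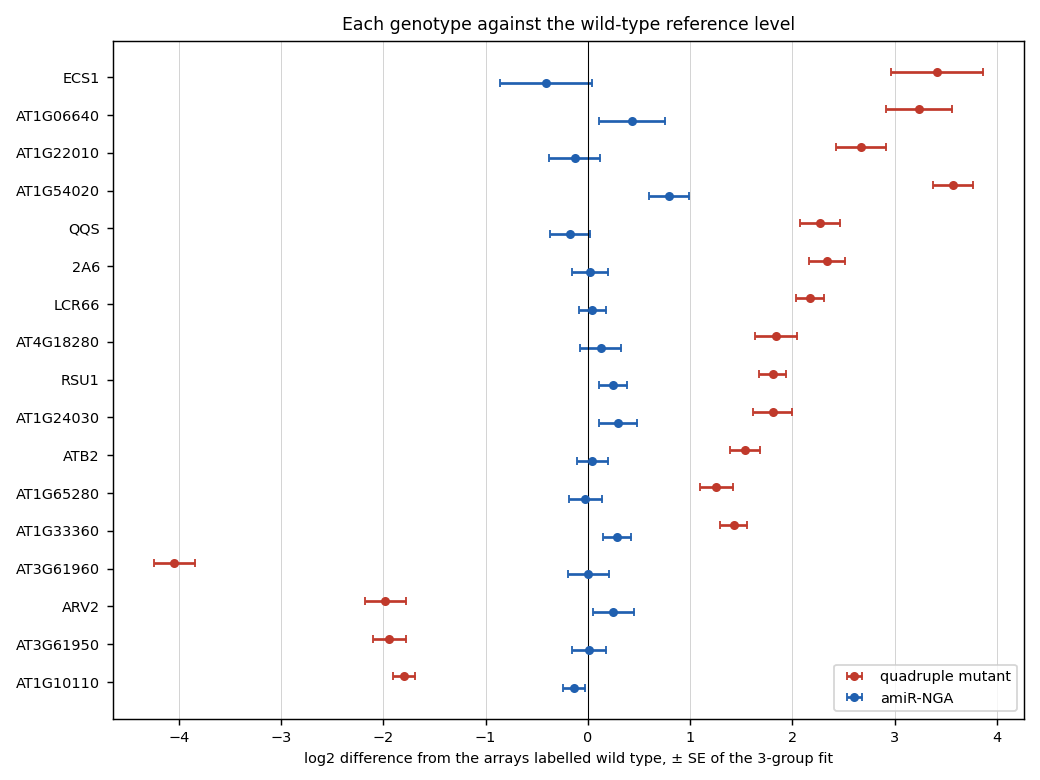
Log2 difference of each genotype from the mean of the 7 arrays labelled wild type (x axis, bars ± SE of the 3-group fit) for the 17 named genes (y axis). The amiR-NGA points lie between -0.41 and 0.79, while every quadruple mutant point lies above 1.2 or below -1.7; both genotypes are set against the same wild-type arrays.

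The 7 unnamed probe sets also had the quadruple mutant outside the wild-type range. At 245219_at and 259536_s_at, however, both amiR-NGA arrays lay beyond that range on the opposite side. Probe set 245219_at measured 9.33 and 9.39 in the quadruple mutant, 8.24 and 8.44 in amiR-NGA and 8.61 to 8.93 in wild type. For 259536_s_at the values were 6.80 and 6.78, 8.12 and 7.90, and 7.48 to 7.85 in the same order. The smallest adjusted p of all was that of probe set 262908_at, which measured 9.88 and 9.97 in the quadruple mutant, 6.96 and 6.94 in amiR-NGA and 6.92 to 7.29 in wild type (log2 difference 2.97, SE 0.16, limma adjusted p = 5.19e-06). Probe set 254098_at had the largest difference of the 24, 4.40, but replicates 1 and 2 of the quadruple mutant read 9.27 and 7.44 (SE 0.54, adjusted p = 0.00436). Just outside the threshold, with adjusted p from 0.0572 to 0.0621, stood PAP20 (AT3G52780), a purple acid phosphatase gene, and 3 unnamed probe sets. PAP20 measured 7.29 and 6.15 in the quadruple mutant and 4.89 and 4.34 in amiR-NGA.

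Calls were steady at 10 of the 17 named genes: 2A6, ARV2, AT1G10110, AT1G22010, AT1G54020, AT3G61950, AT3G61960, LCR66, QQS and RSU1 kept theirs without any 1 of the 11 arrays. All of these except AT3G61960 lost the call where the 4 nga arrays alone were fitted and where the replicate number was a block. The filter was set once, on all 11 arrays, and QQS met it only with the quadruple mutant arrays, in which it is high. Leaving out an array did not repeat that step, so the steadiness of QQS is no separate support. A filter with a limit above 4 left out QQS, RSU1, AT1G22010 and AT1G54020. Over the 24 probe sets the size of the difference between quadruple mutant replicates had a median of 0.135 and reached 1.82, and 23 of the 24 lay at least 2-fold from the amiR-NGA mean on both quadruple mutant arrays. Over all tested probe sets that median was 0.228 in the quadruple mutant and 0.128 in amiR-NGA. The test favours probe sets with close replicates and large differences, so these values of the 24 follow in part from their selection.

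The filter left out genes that were near the floor in every group but the quadruple mutant, where these reached 4 on fewer than 4 arrays. QQS and AT1G24030 reached 4 on exactly 4 arrays, both quadruple mutant arrays among them. They too met the filter only with the group in which they are high. With the limit lowered to 2 arrays the calls grew by 14 probe sets, all higher in the quadruple mutant. The stricter filter had kept out 10 of them, and a limit of 2 arrays can be met by the 2 quadruple mutant arrays alone. The direction of these 10 is therefore no separate result. These entered through the group in which they are high, so their values are given without a test, and they were chosen after their values were seen. AT1G23650 measured 7.50 and 7.22 in the quadruple mutant and 3.33 and 3.15 in amiR-NGA, with a highest wild-type value of 4.06. AT1G12400 stood at 5.44 and 6.38 against 3.68 and 3.56, and AT1G13130 at 6.75 and 5.46 against 3.88 and 3.62. AT1G23640, AT1G35612, AT1G63880 and AT1G64270 lay between 4.35 and 5.27 in the quadruple mutant and between 3.31 and 3.64 in amiR-NGA.

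The position of the differing genes was described in locus order, with 9905 measured genes placed by the RefSeq table (assembly TAIR10.1). Of the 17 named genes, 11 lie on chromosome 1, which holds 26.4% of the measured genes but 64.7% of those called. Chromosome 3 holds 4 and chromosome 4 holds 2. Chromosomes 2 and 5, with 1483 and 2336 measured genes, hold 0. NGA3 is on chromosome 1, NGA1 on chromosome 2, NGA2 on chromosome 3 and NGA4 on chromosome 4.

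Among the 11 on chromosome 1, 10 were higher in the quadruple mutant, and they were spread over most of its length, from measured gene 100 (2A6) to measured gene 1983 (AT1G65280) of 2611. ATB2 and LCR66 lie 9 measured genes apart, and the largest gap, of 488 measured genes, lies between AT1G10110 and AT1G22010.

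Lower genes lay beside NGATHA loci. AT3G61960 and AT3G61950 are the nearest and next nearest measured genes on the lower-numbered side of NGA2, and ARV2 is the nearest on the higher-numbered side of NGA4. On the opposite sides, AT3G61980 measured 7.96 and 7.99 in the quadruple mutant against 8.04 and 8.27 in amiR-NGA (difference -0.18, limma adjusted p = 0.877), and AT4G01490 lay near the floor in all groups. Within 25 measured genes on each side of the 4 NGATHA genes, 3 of 175 were called, 1.71%, against 0.172% of all measured genes, and all 3 were lower. Around NGA1 and NGA3 the same windows held 0 called genes. NGA3 had 0 measured genes on its lower-numbered side, so its window covers the higher-numbered side alone.

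**Figure D3:**
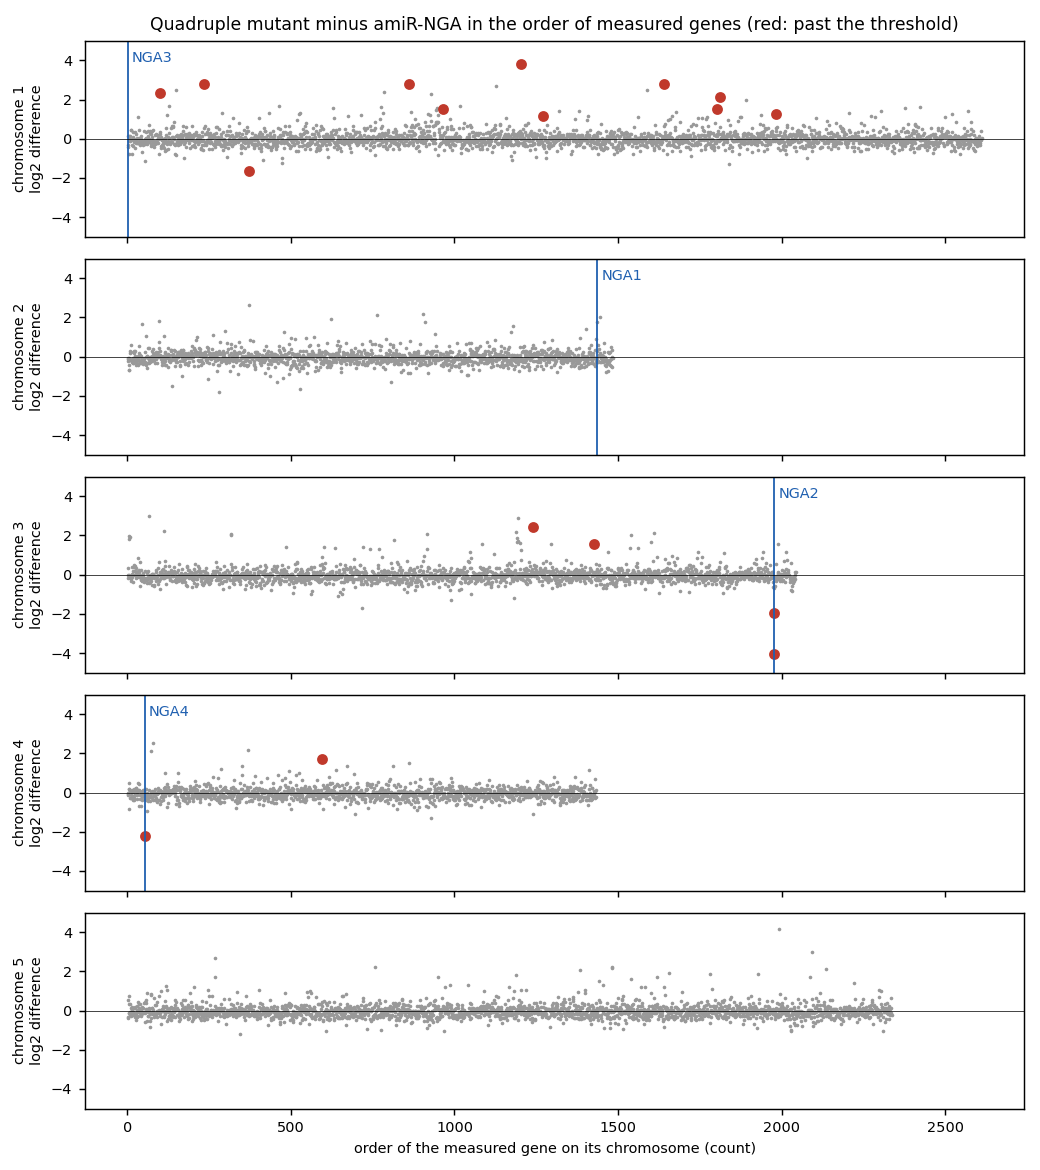
Quadruple mutant minus amiR-NGA log2 difference (y axis) of 9905 measured genes in their order on chromosomes 1 to 5 (x axis, a count of measured genes), with genes past the threshold as large red points and blue lines at the NGATHA genes. Red points are most frequent on chromosome 1, absent from chromosomes 2 and 5, and at or below -1.95 beside NGA2 and NGA4.

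The genotypes were next compared over all arrays and probe sets. The standard deviation over probe sets of the difference between arrays was 0.281 between quadruple mutant replicate 2 and amiR-NGA replicate 1, 0.311 between both amiR-NGA replicates and 0.465 between both quadruple mutant replicates. It was 0.492 and 0.629 between quadruple mutant replicate 1 and amiR-NGA replicates 1 and 2. Quadruple mutant replicate 2 was therefore nearer to amiR-NGA than to its own replicate. At least 2-fold apart were 0.737% of probe sets between quadruple mutant replicate 2 and amiR-NGA replicate 1, and 6.57% between quadruple mutant replicate 1 and amiR-NGA replicate 2.

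A 2-fold or larger mean difference was seen at 390 probe sets, 328 higher and 62 lower in the quadruple mutant, and 366 of these were not called. At most of them replicate 1 of the quadruple mutant lay farther out than replicate 2. Of the 310 higher and not called, replicate 1 exceeded replicate 2 at 278, by at least 1 at 192, and replicate 2 was itself at least 1 above the amiR-NGA mean at 119. At 283 of the same 310, amiR-NGA replicate 1 also exceeded amiR-NGA replicate 2. Of the 56 lower and not called, replicate 1 was below replicate 2 at 51. The largest, SBT4.13 (AT5G59120), a subtilisin-type protease gene, measured 10.55 and 6.47 in the quadruple mutant and 4.66 and 3.99 in amiR-NGA (log2 difference 4.18, SE 0.98, limma adjusted p = 0.306).

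**Figure D4:**
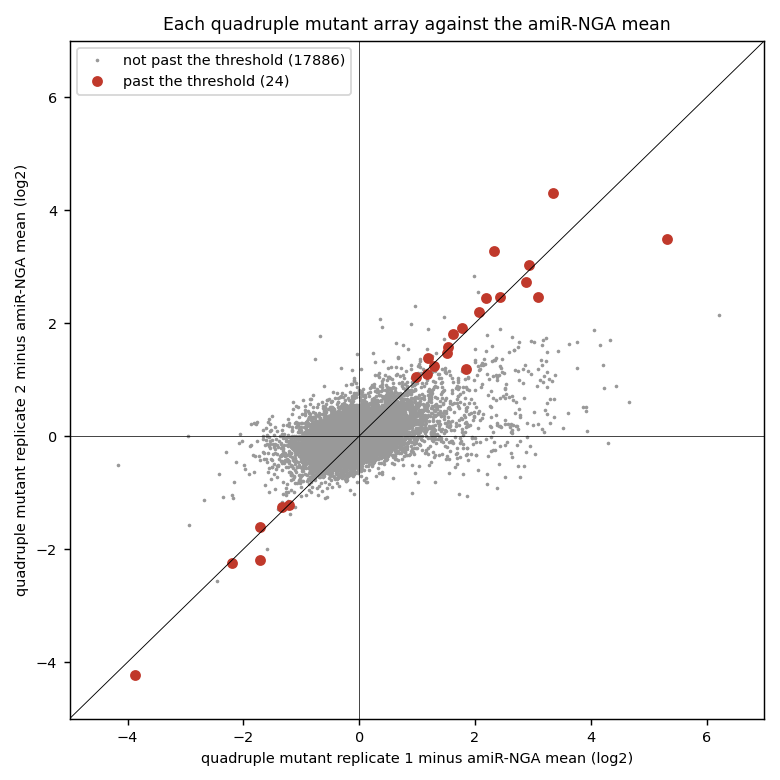
Difference of quadruple mutant replicate 1 (x axis) and replicate 2 (y axis) from the amiR-NGA mean, in log2 units, for the 17910 tested probe sets; the diagonal marks equal differences. Most of the 24 probe sets past the threshold (red) lie near the diagonal, with 254098_at the farthest from it, while most grey points beyond 2 on the x axis lie below it, where replicate 1 is higher than replicate 2.

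At most probe sets a measured difference of 2-fold lay outside the interval. The 95% interval of the quadruple mutant minus amiR-NGA difference was inside -1 to 1 at 14323 of the 17910 (80.0%), and extended a median of 0.489 to either side of the difference. At 3563 others it reached past these limits without a call, so a 2-fold difference was not excluded there. Not all of these intervals hold 0: those of NGA2 above and GH3.3 below do not. The 14323 include probe sets near the floor, where folds are compressed. There the interval bounds the measured difference and not that of the transcripts.

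Genes of 18 pathway and tissue lists were then compared, of which 16 had a member among the tested probe sets and 65 of 222 entries were tested. LCR66 in the defence list and QQS in the starch list, both described above, were the members past the threshold (2 higher and 0 lower, against 0.134% of all probe sets), and these had been chosen with earlier results known. The median difference over the 65 was 0.08, against -0.05 over all tested probe sets.

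All 5 tested members of the photosynthesis and photorespiration list had intervals inside -1 to 1, against 80.0% of all probe sets, with a median of 0.23. HPR (AT1G68010), the hydroxypyruvate reductase of photorespiration, measured 10.43 and 10.72 in the quadruple mutant and 10.40 and 10.66 in amiR-NGA, below a wild-type range of 11.55 to 12.06. The genotypes overlapped, with a difference of 0.04 (95% interval -0.38 to 0.47, limma adjusted p = 0.974). RCA (AT2G39730), Rubisco activase, measured 12.70 and 12.83 against 12.50 and 12.42 (difference 0.30, -0.12 to 0.72), and LHCB4.2 (AT3G08940), a photosystem II antenna protein, 10.16 and 10.28 against 9.86 and 10.02 (0.29, -0.25 to 0.82).

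Among the 7 tested polarity and growth genes 0 were called, against 0.134% of all probe sets, and 6 had intervals inside -1 to 1, against 80.0%. INO (AT1G23420), the YABBY gene of the outer ovule integument, measured 5.66 and 5.33 in the quadruple mutant and 5.91 and 5.43 in amiR-NGA, all above the wild-type maximum of 4.98 (difference between genotypes -0.17, 95% interval -0.66 to 0.31). PHV (AT1G30490), a class III HD-ZIP gene of the upper leaf side, was the exception to the interval count, at 8.75 and 8.67 against 8.25 and 8.17 (0.50, -0.11 to 1.12, limma adjusted p = 0.754). Of the 4 style and stigma regulators tested, SPT, ALC and SHI had intervals inside -1 to 1 and CES, a bHLH factor of the transmitting tract, had a difference of 0.51 (-0.34 to 1.36).

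Auxin genes were less closely bounded. The 3 YUC genes of auxin synthesis had differences of -0.40 to -0.02 with intervals inside -1 to 1. GH3.3 (AT2G23170), which conjugates auxin to amino acids, measured 6.89 and 7.96 in the quadruple mutant and 8.89 and 9.23 in amiR-NGA, with 8.99 to 10.27 in wild type. The groups did not overlap, as at 46.8% of all probe sets, and the difference of -1.64 (95% interval -2.52 to -0.75) did not pass the threshold (limma adjusted p = 0.390). Its relative WES1 (AT4G27260) measured 7.87 and 9.52 against 9.26 and 9.54, a difference of -0.71 (-1.86 to 0.45) set by quadruple mutant replicate 1.

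Pollen markers stood apart mainly on 1 array. All 10 tested markers of 16 had a positive difference, with a median of 0.48, against 7482 of all 17910 probe sets above 0 and an overall median of -0.05, and 0 passed the threshold, against 0.134% of all. Their median level was 6.34 on quadruple mutant replicate 1, 5.39 on replicate 2, 5.22 and 4.85 on amiR-NGA replicates 1 and 2, and 4.69 to 5.72 on the wild-type arrays. Their summed signal, on the log2 scale, was 10.91 on quadruple mutant replicate 1, 9.91 on replicate 2, 10.001 and 9.69 in amiR-NGA and 9.49 to 10.12 in wild type. Quadruple mutant replicate 1 was the highest nga array at 9 of the 10, and all 10 were higher on replicate 1 than on replicate 2. In amiR-NGA 9 of the 10 were likewise higher on replicate 1 than on replicate 2.

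Of single markers, AGL104 (AT1G22130), a MADS-domain factor of maturing pollen, measured 6.39 and 5.36 in the quadruple mutant and 4.98 and 4.08 in amiR-NGA (difference 1.34, 95% interval 0.43 to 2.26, limma adjusted p = 0.627). The pollen LIM protein gene PLIM2a (AT2G45800) measured 8.55 and 5.41 against 6.42 and 4.76 (1.39, -0.45 to 3.23). The 4 tested anther and tapetum markers of 12 had negative differences, the largest that of SPL (AT4G27330), the early sporogenesis regulator (-0.72, -1.47 to 0.02). Fewer cells of a type and less RNA per cell cannot be told apart in these samples. Pollen level and actin difference both moved with quadruple mutant replicate 1, and their part in the 366 large differences that were not called was not tested.

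In the stress list 0 of 4 tested members, and in the defence list 2 of 6, had intervals inside -1 to 1. THI2.1 (AT1G72260) encodes a thionin, a small antimicrobial peptide. It measured 10.81 and 8.81 in the quadruple mutant and 9.17 and 8.85 in amiR-NGA (difference 0.80, 95% interval -0.67 to 2.27, limma adjusted p = 0.836), and HIS1-3, a stress-inducible linker histone, 3.50 and 4.03 against 3.65 and 5.69 (-0.91, -2.82 to 1.00). SWEET11, a sucrose exporter, had a difference of 0.29 (-0.49 to 1.07) and APL4, an ADP-glucose pyrophosphorylase subunit, of 0.07 (-0.77 to 0.91). In the light and clock list HYH and GI had differences of -0.07 and 0.07, and in the cytokinin response list ARR15 had 0.01 (-0.40 to 0.42). SE, the tested member of the small RNA machinery list, which works in microRNA processing, had a difference of -0.17 (-0.57 to 0.23).

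**Figure D5:**
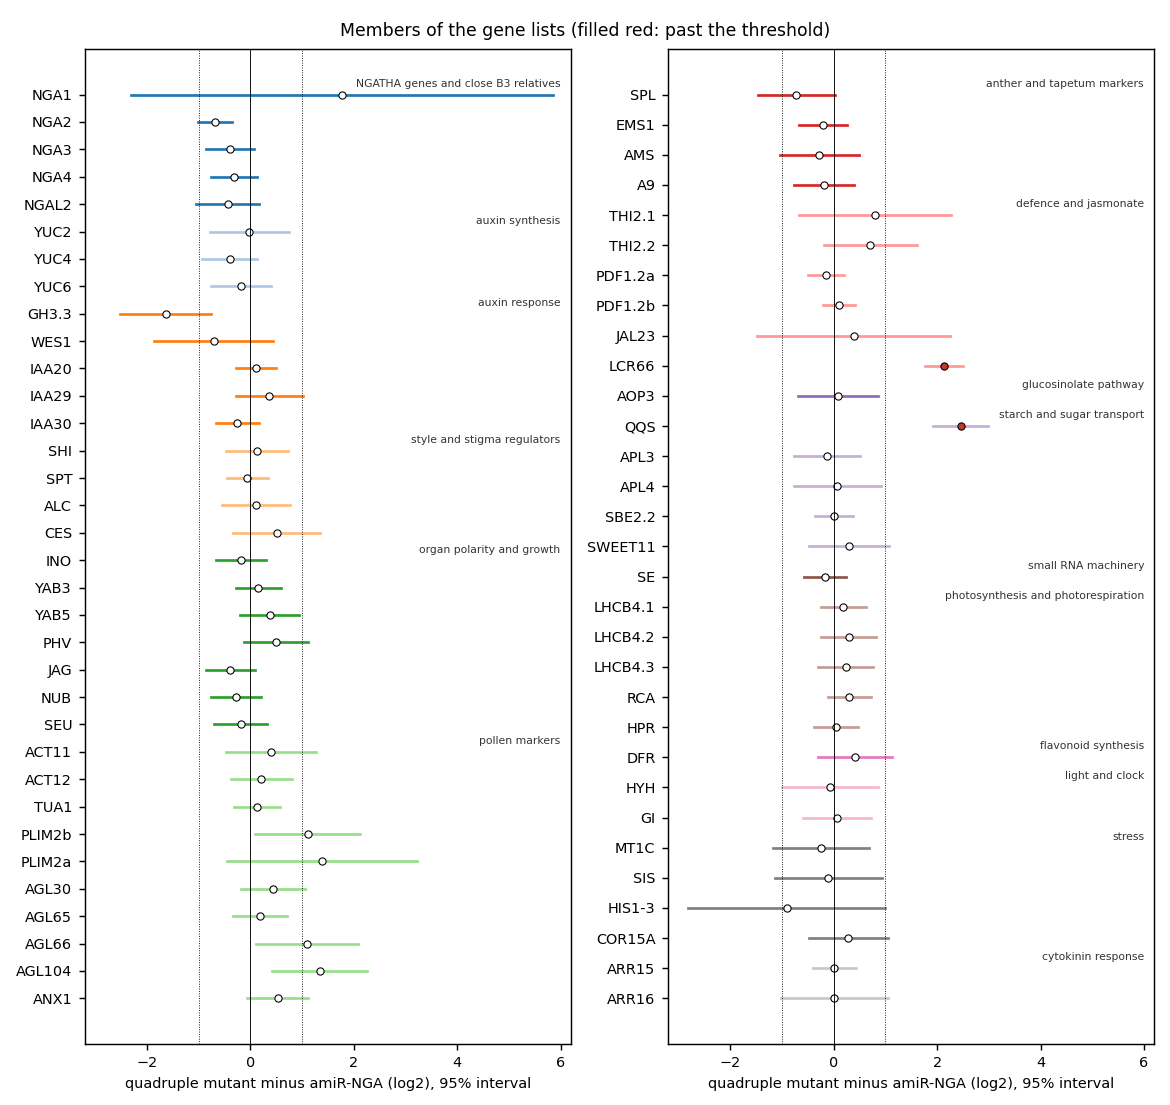
Quadruple mutant minus amiR-NGA log2 difference (x axis, point) with its 95% interval (bar) for the 65 tested list members (y axis), grouped and coloured by list; dotted lines mark 2-fold. LCR66 and QQS (filled red) lie beyond 2-fold, and the 10 pollen markers lie to the right of 0.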

How the data were processed

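RNA of 11 inflorescence samples was hybridised to Affymetrix ATH1 arrays. The deposited log2 values were made by the authors with GC-RMA in R 2.7.2 and Bioconductor 2.2, per the submitters' processing notes and the design text. GC-RMA compresses dim signals and makes arrays alike in distribution.

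From these, 64 control rows were left out and probe sets at 4 or more on at least 4 arrays kept. Samples were grouped by title. One limma fit (3.58.1, lmFit and eBayes, R 4.3.3) with 3 groups gave all differences, two-sided, adjusted by Benjamini-Hochberg over 17910 probe sets at 0.05; intervals use its moderated SE. Scripts were tested on simulated data. Genes were named through the platform annotation and its Entrez numbers in RefSeq. A gene with several probe sets entered lists by the brightest and locus order by the smallest p.

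The members and lists were chosen with earlier results of these data known. Named were the NGATHA genes and relative, up to 15 genes called in each direction with groups apart, list members past the threshold and up to 3 others per list, and called neighbours; others were chosen after their values were seen. Alternatives covered filter, scaling, variance model, array weights, arrays in the fit, covariates and a fold limit.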

Additional observations from a re-analysis of the deposited data

Results flagged for a closer look

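In 5 of 87 genes and probe sets examined, 1 array labelled wild type stood apart from the other 6 by more than Dixon's 95% limit for 7 values; chance flags about 1 in 20 groups. PHV read 7.30 on wild-type replicate 1, with the next at 7.93. GI read 6.63 on replicate 7, with the next at 7.30. The pollen markers PLIM2a and AGL30 read 5.97 and 6.03 on replicate 2, above the next highest values of 4.94 and 5.45. Probe set 264513_at, lower in the quadruple mutant, read 7.87 on replicate 6, with the next at 8.14.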

How the results depend on the processing

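All 24 differences kept their direction under every alternative run, and the 95% interval stayed inside -1 to 1 at 10961 to 14857 probe sets when 1 array was left out. In 1 alternative, a filter with a limit above 4, the direction could not be checked for 6 of the 24, as their probe sets were left out. These were QQS, RSU1, AT1G22010, AT1G54020, AT1G24030 and 254098_at. The count of calls moved more than that of the intervals. It was 38 (32 higher) with the filter at 2 arrays and 35 (29 higher) with no filter, both including the same 24. Of the 14 further calls with the filter at 2 arrays, 10 entered through the group in which they are high, so their direction is no separate result. Array weights gave 45 (33 higher, 12 lower), the 24 among them. With the 4 nga arrays alone 2 passed, 1 higher and 1 lower (AT3G61960 and probe set 262908_at), and the same counts, 2, 1 and 1, came with the replicate block. Both fits keep fewer residual degrees of freedom. Shared replicate numbers do not pair these samples by label, and with 2 numbers the differences between replicates 1 and 2 of the genotypes correlated at 0.285 across probe sets. Leaving out 1 array gave 13 to 179 calls, 9 to 153 higher and 4 to 26 lower; where 1 array of a genotype remained, it was assumed to vary like the other groups. Without the 3 arrays of high actin difference 22 passed, 17 of them among the 24. NGA1 passed with wild-type replicates 1 to 4 alone (adjusted p = 0.0235). The number of arrays and the floor near 4 limit all values.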

Other observations

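The following genes had large negative differences that did not pass the threshold, and they were chosen after their values were seen. REM22 (AT3G17010), a B3-domain gene, measured 5.14 and 6.41 in the quadruple mutant and 7.13 and 7.85 in amiR-NGA, with 5.70 to 7.55 on the arrays labelled wild type (log2 difference -1.72, SE 0.60, limma adjusted p = 0.634). AT2G16210, listed by RefSeq as reproductive meristem 24, measured 6.49 and 6.09 against 7.82 and 8.36, with 6.74 to 8.38 in wild type (-1.80, SE 0.47, adjusted p = 0.482). For both genes the nga genotypes did not overlap, as at 46.8% of all tested probe sets. AT2G05540 measured 6.14 and 9.10 in the quadruple mutant against 8.33 and 9.86, so its replicates differed more than the genotypes.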
